A study of Homo sapiens with 18 samples.

Results

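The histone deacetylase genes of Ccd18-Co cells, an established line of human colon fibroblasts, were followed by ATAC-seq through repeated cytokine exposure and a later course of belinostat. The 10 genes were HDAC1, HDAC2, HDAC3 and HDAC8 of class I, HDAC4, HDAC5, HDAC7 and HDAC9 of class IIa, and HDAC6 and HDAC10 of class IIb. A peak was assigned to a gene where it overlapped the gene body or the 3 kb upstream of it in GENCODE release 44 on hg38. This gave 259 of the 334857 peaks of the table, and the 10 genes were set beside 18887 protein-coding genes with at least 1 peak. Class I held 44 peaks, class IIa 204 and class IIb 11. The 18 libraries formed 3 groups of 6. Unstimulated cells received no cytokine. The other cells received 3 pulses of TNF, OSM and IL-17A at 10 ng/ml each with IL-1β at 0.1 ng/ml, every pulse lasting 72 h with 96 h of recovery. After 1 week of rest they were given DMSO, the solvent, or belinostat at 250 nM for 5 days, and nuclei were taken 2 weeks after that. The labels do not say whether unstimulated cells were given DMSO, and they do not say whether the 6 libraries of a group came from separate cultures, so p-values measure the spread between these libraries. DMSO against unstimulated cells is the cytokine contrast, belinostat against DMSO the belinostat contrast, and belinostat against unstimulated cells the residual contrast.

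Histone deacetylases remove acetyl groups from lysines of histones and other proteins. Class I enzymes are mostly nuclear: HDAC1 and HDAC2 work in the SIN3, NuRD and CoREST corepressor complexes, HDAC3 works with NCOR1, and HDAC8 acts outside these complexes. Class IIa enzymes have little deacetylase activity of their own, bind MEF2 transcription factors and move between nucleus and cytoplasm, while HDAC6 of class IIb deacetylates tubulin in the cytoplasm and HDAC10 of class IIb deacetylates polyamines. Belinostat is a hydroxamate that inhibits deacetylases by binding the zinc ion of their catalytic site. The measurements below describe the chromatin of the genes that encode these enzymes, and neither their transcripts nor their activity was measured.

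Libraries differed in depth with group. Counts in peaks ran from 7077321 to 11352032 in unstimulated, from 6488975 to 8066642 in DMSO and from 4661678 to 6370845 in belinostat libraries. All 12 fibroblast markers had a peak over a start, with a summed level of 296 to 332 CPM (counts scaled by the effective size of the library) per kb in unstimulated, 201 to 288 in DMSO and 175 to 268 in belinostat libraries. All 5 leukocyte and all 4 endothelial markers had none, and of 6 epithelial markers CDH1, KRT20 and CDX1 had none. The summed epithelial level was 10.1 to 15.5 CPM per kb in unstimulated, 10.0 to 15.5 in DMSO and 14.8 to 20.7 in belinostat libraries. Smooth muscle markers had peaks for 4 of 4 genes and summed levels of 41.2 to 57.8, 40.5 to 52.5 and 31.3 to 56.9, and of the 3 glial and neuronal markers SOX10 and ELAVL4 had none. The part of depth and of these markers in the results below was not tested.

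CPM values were scaled by TMM factors (trimmed mean of M values) over all peaks. With this scaling weak peaks rose and strong peaks fell across the whole table in the cytokine contrast: opened peaks had a median average of -0.01 log2 CPM and closed peaks one of 3.45. Values are therefore also given with loess offsets, which remove the trend of each library with peak strength. TMM leaves that trend in the fold changes, so a change that passed with TMM alone is not told apart from it.

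All 10 genes had an open start. Start peaks were chosen as the peak over the start of the gene. For HDAC2 and HDAC7, with no peak there, the peak over a coding transcript start with the highest mean count was taken. These start peaks differed in level per length by over an order of magnitude. In unstimulated cells the HDAC4 start peak had the highest mean, 74.5 ± 8.49 CPM per kb (SD, n = 6), and the HDAC9 start peak the lowest, 3.71 ± 0.599 CPM per kb. HDAC6 stood beside HDAC4, with 64.4 CPM per kb in the narrow peak over its annotated gene start and 82.4 CPM per kb in the neighbouring peak, chrX:48801561-48802599, which covers the starts of 23 coding transcripts. Between them lay HDAC7 (29.2 CPM per kb), HDAC1 (24.0 CPM per kb), HDAC3 (23.2 CPM per kb), HDAC2 (22.0 CPM per kb), HDAC5 (20.8 CPM per kb), HDAC10 (16.8 CPM per kb) and HDAC8 (8.51 CPM per kb). In this order HDAC1, HDAC3, HDAC2 and HDAC5 differed from one to the next by less than their SD, which was 1.94 to 2.79 CPM per kb. HDAC9 has further starts inside the gene, of which chr7:18495446-18496347 covers 16 coding transcript starts at 5.67 CPM per kb and chr7:18509017-18509388 covers 2 at 12.9 CPM per kb.

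**Figure D1:**
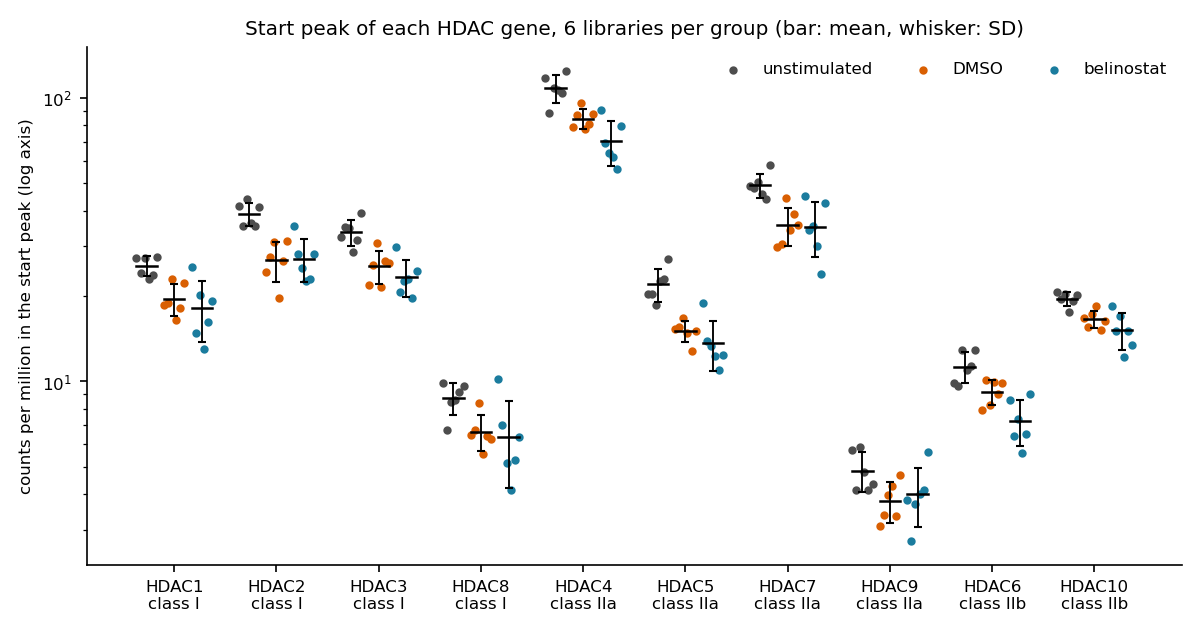
CPM in the start peak of each of the 10 HDAC genes (log axis), with 1 point per library, the group mean as a bar and the SD as a whisker. HDAC4 is highest and HDAC9 lowest in every group, and the unstimulated points lie mostly above those of the other groups.

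Few HDAC peaks differed between belinostat and DMSO cells 2 weeks after the drug was withdrawn. Of the 259 peaks 2 opened and 2 closed against DMSO at an adjusted p under 0.05, beside 0.607% of all peaks opened and 1.75% closed. At an unadjusted p under 0.05 there were 8 higher and 28 lower, beside 27502 higher and 25729 lower of all 334857 peaks. The median log2 fold change was -0.05 for HDAC peaks and 0.01 for all peaks. The 4 peaks all lay in class IIa, which held 204 of the 259 peaks, 1 in HDAC4 and 3 in HDAC9. This was 1.96% of class IIa peaks, beside 2.36% of all peaks called in either direction. None of the 44 peaks of class I and none of the 11 of class IIb passed with edgeR, where an unadjusted p under 0.05 was reached by 2 higher and 3 lower peaks of class I and by 0 higher and 2 lower of class IIb. DESeq2 called 0 peaks of class I and 0 of class IIb, and gave no adjusted p for 28 and 4 of them. With so few peaks in classes I and IIb, the lack of calls there does not set them apart from class IIa. No member locus passed either when counts were summed per gene, beside 0.138% of all loci higher and 1.73% lower, and DESeq2 called 0 of the 10. Unadjusted, 3 loci were lower: HDAC4 (log2 fold change -0.15 ± 0.05, SE), HDAC5 (-0.19 ± 0.08) and HDAC6 (-0.21 ± 0.08), with adjusted p of 0.122, 0.177 and 0.126. Without belinostat replicate 1 these 3 loci passed.

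**Figure D2:**
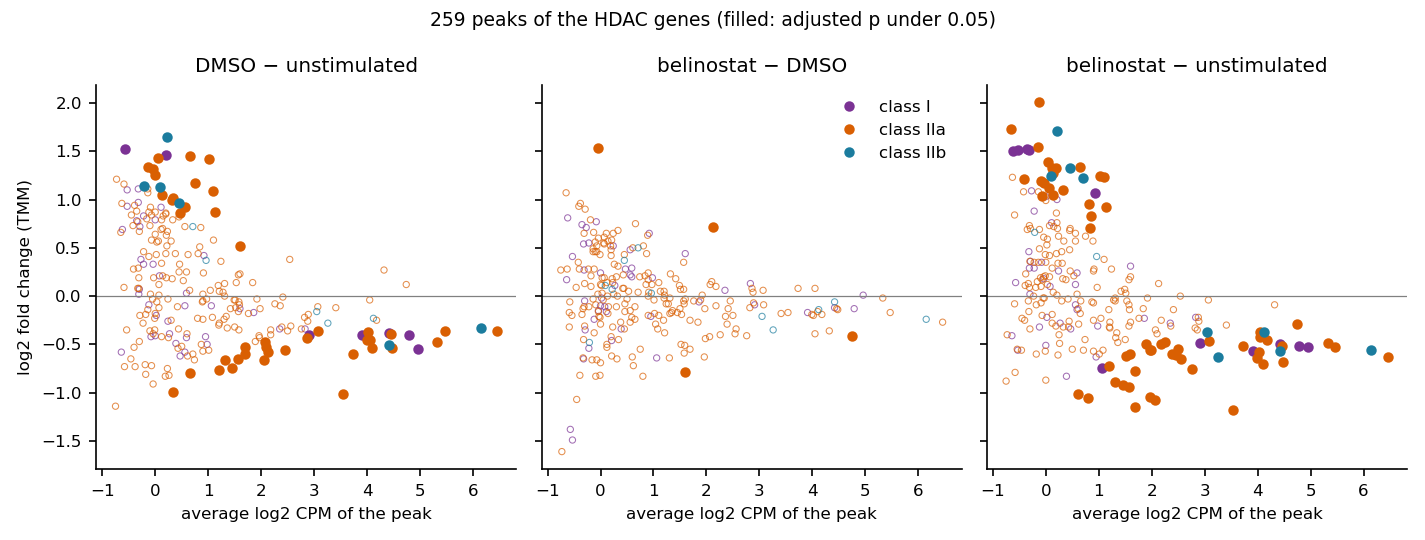
Log2 fold change with TMM scaling against average log2 CPM for the 259 HDAC peaks in the cytokine, belinostat and residual contrasts, coloured by class and filled where the adjusted p is under 0.05. In the cytokine and residual panels the filled points above 0 are weak peaks and most below 0 are strong ones, and in the belinostat panel 4 points are filled.

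The HDAC4 peak that closed lay at chr2:239274717-239275597, 126 kb inside the gene, which is read on the minus strand. HDAC4 encodes a class IIa enzyme that represses MEF2 targets. No transcript starts in this peak in GENCODE 44, where it is an intron, but RefSeq places a start of HDAC4 within it, among several for this gene. The central 300 bases are shown because they carry 3 of the words searched in all peaks, on the strand of the gene (hg38 chr2:239275007-239275306). They lie upstream of the RefSeq start and do not include it. The 250 bases just before that start held none of the words searched. Capitals mark, in this order, an SP1 word (GGGCGG), an ETS word (CCGGAAG, here on the other strand) and a TEAD word (GGAATG), all searched on both strands.
HDAC4 internal start: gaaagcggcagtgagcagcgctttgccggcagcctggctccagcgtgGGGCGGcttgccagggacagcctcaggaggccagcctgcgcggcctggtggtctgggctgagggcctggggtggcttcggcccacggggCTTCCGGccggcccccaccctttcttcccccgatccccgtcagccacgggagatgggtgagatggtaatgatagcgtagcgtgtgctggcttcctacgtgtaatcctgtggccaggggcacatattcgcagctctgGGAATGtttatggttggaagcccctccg
Of windows of 300 bases at the centres of all peaks, 11.4% held the SP1 word, 2.0% the ETS word and 21.3% the TEAD word. Of the 259 HDAC windows 10.8%, 1.5% and 21.6% held them.

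In unstimulated libraries this HDAC4 peak had a lowest, median and highest level of 23.3, 26.4 and 35.8 CPM. DMSO libraries had 21.0, 29.7 and 38.9 CPM, and belinostat libraries 17.2, 22.2 and 27.3 CPM. The DMSO and belinostat groups overlapped, with 4 DMSO libraries above every belinostat library. The peak was lower after belinostat by a log2 fold change of -0.41 ± 0.12 (SE, n = 6 against 6, adjusted p = 0.0299 by edgeR). It was not called with loess offsets (-0.23, adjusted p = 0.137), by DESeq2 (adjusted p = 0.0565), with TMM over the weaker 50% of peaks (adjusted p = 0.209) or with only the 12 libraries compared (adjusted p = 0.058). It was also not called when any of DMSO replicates 1, 2, 3 and 6 or belinostat replicates 2 and 3 was left out, with adjusted p from 0.0524 to 0.158. In the cytokine contrast its change was 0.12 ± 0.11 with TMM (adjusted p = 0.476) and 0.51 (adjusted p = 8.51e-07) with loess offsets, so whether it opened with cytokines depends on the scaling.

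HDAC9 held the other 3 peaks that belinostat changed. It encodes a class IIa enzyme and spans 915468 bases of chromosome 7, and its 3′ part is known to hold enhancers of TWIST1, a transcription factor of mesenchymal cells whose start lies downstream. The sequences of these peaks and of the HDAC9 peak that fell most clearly with cytokines are shown on the plus strand of hg38, since they are the sites on which the results for this gene turn. They are chr7:18593641-18593899 (intron, opened), chr7:18793018-18793317 (the middle of a peak over a coding exon, opened), chr7:18866678-18866977 (the middle of an intronic peak, closed) and chr7:18541482-18541781 (the middle of an intronic peak that fell with cytokines). Capitals mark TEAD words (GGAATG or its reverse complement) in both opened peaks and AP-1 words (TGANTCA) in the closed peak. The middle stretch shown of the peak that fell with cytokines held none of the 7 words searched. The rest of that peak was not searched.
HDAC9 opened, intron: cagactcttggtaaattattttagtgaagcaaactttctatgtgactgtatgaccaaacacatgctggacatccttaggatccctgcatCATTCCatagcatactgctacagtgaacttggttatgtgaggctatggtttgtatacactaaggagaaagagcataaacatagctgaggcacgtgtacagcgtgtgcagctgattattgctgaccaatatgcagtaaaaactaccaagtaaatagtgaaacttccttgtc
HDAC9 opened, coding exon: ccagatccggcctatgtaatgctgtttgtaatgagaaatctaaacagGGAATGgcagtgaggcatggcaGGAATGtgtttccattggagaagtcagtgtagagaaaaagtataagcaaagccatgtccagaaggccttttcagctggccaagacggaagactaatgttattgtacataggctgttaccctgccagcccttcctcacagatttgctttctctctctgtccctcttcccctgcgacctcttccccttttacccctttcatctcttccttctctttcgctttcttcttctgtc
HDAC9 closed, intron: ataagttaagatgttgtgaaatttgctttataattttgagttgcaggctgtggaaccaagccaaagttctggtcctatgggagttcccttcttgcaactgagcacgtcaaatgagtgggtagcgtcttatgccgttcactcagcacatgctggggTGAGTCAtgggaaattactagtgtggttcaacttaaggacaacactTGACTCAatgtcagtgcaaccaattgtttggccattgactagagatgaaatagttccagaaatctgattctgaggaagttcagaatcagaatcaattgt
HDAC9 lower with cytokines: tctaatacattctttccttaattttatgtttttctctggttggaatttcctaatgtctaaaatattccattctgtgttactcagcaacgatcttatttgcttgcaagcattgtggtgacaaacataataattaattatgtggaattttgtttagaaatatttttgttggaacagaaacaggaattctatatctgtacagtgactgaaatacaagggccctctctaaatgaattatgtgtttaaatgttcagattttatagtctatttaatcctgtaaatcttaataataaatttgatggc
The AP-1 word was present in 17.8% of windows of all peaks and in 13.9% of HDAC windows. The other words searched were MEF2 (CTANNNNTAG, 3.9% of all and 3.5% of HDAC windows), CEBP (TTGCNNCAA, 2.5% and 2.7%) and NF-kB (GGGNNTTTCC, 1.4% and 0.4%). A match of letters is a description of the sequence and does not show that a factor was bound.

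The HDAC9 peak over a coding exon, chr7:18792893-18793443, lies 706 kb from the gene start. Its lowest, median and highest levels were 3.27, 4.21 and 6.08 CPM in unstimulated, 2.02, 3.02 and 3.88 CPM in DMSO and 2.86, 5.05 and 7.41 CPM in belinostat libraries. The DMSO level was the lowest of the 3 groups, and 4 of 6 belinostat libraries lay above every DMSO library. The peak fell in the cytokine contrast by 0.58 on the log2 scale (SE 0.19, adjusted p = 0.0204) and rose in the belinostat contrast by 0.72 ± 0.19 (adjusted p = 0.019), 2 contrasts that share the DMSO libraries. In the residual contrast its change was 0.13 (adjusted p = 0.602). With loess offsets the rise was 0.79 (adjusted p = 0.0043) and the fall was not called (adjusted p = 0.243). The rise was not called with TMM over the weaker 50% of peaks (adjusted p = 0.186), or without DMSO replicates 1 or 2 or belinostat replicates 1, 2 or 6, with adjusted p from 0.0526 to 0.161. The fall was also not called by DESeq2 (adjusted p = 0.107) or with library totals (adjusted p = 0.134), or without unstimulated replicate 4 or DMSO replicates 1 or 2, with adjusted p from 0.0591 to 0.129.

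The HDAC9 intronic peak at chr7:18866639-18867017 had the opposite order. It had 2.08, 2.23 and 3.38 CPM in unstimulated, 2.31, 3.59 and 5.16 CPM in DMSO and 1.04, 2.44 and 2.73 CPM in belinostat libraries. DMSO was the highest group, and 5 of 6 DMSO libraries lay above every belinostat library. The peak rose in the cytokine contrast by 0.52 ± 0.20 (adjusted p = 0.0494) and fell in the belinostat contrast by 0.79 (SE 0.22, adjusted p = 0.0235), again with shared DMSO libraries. With loess offsets the changes were 0.66 (adjusted p = 0.0347) and -0.74 (adjusted p = 0.0388). The fall was not called with library totals or without DMSO replicates 1 or 3 or belinostat replicates 5 or 6, with adjusted p from 0.056 to 0.128. The rise was not called with a replicate block (0.51, adjusted p = 0.0551), by DESeq2 (0.58, adjusted p = 0.0857) or with TMM over the weaker 50% of peaks (0.10, adjusted p = 0.794), nor when any of 10 of the 18 libraries was left out, with adjusted p up to 0.162. This peak lies 250.8 kb from the TWIST1 start.

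The largest belinostat rise was that of the HDAC9 intronic peak at chr7:18593641-18593899, which rested on few reads, 2 to 4 counts in every DMSO library and 2 to 11 in the belinostat libraries. Its levels were 0.26, 0.64 and 1.14 CPM in unstimulated, 0.27, 0.29 and 0.54 CPM in DMSO and 0.39, 1.07 and 1.57 CPM in belinostat libraries. The groups overlapped in their lowest belinostat library. The change was 1.53 ± 0.42 with TMM (adjusted p = 0.0241) and 1.44 (adjusted p = 0.0313) with loess offsets, and it was not called with TMM over the weaker 50% of peaks (adjusted p = 0.065), or without DMSO replicates 1 or 2 or belinostat replicates 4 or 5, with adjusted p from 0.0547 to 0.101. DESeq2 gave no adjusted p for it.

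**Figure D3:**
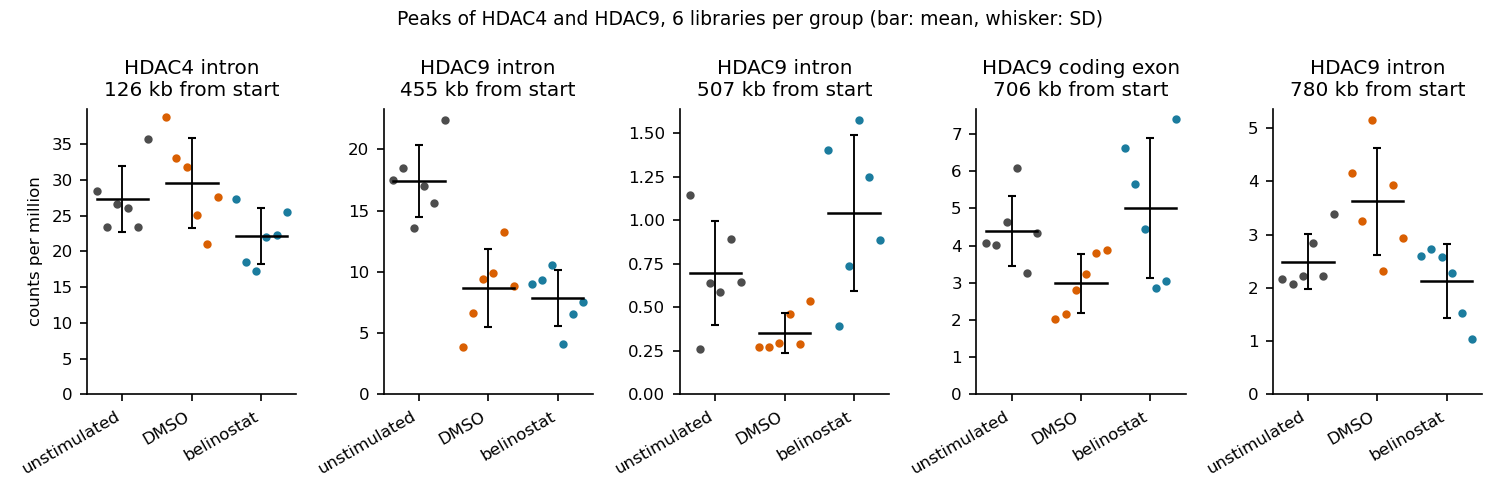
CPM values by library in the HDAC4 and HDAC9 peaks that changed with belinostat and in the HDAC9 peak with the smallest p in the cytokine contrast (455 kb from the start), with the group mean as a bar and the SD as a whisker. Groups overlap in the 4 belinostat peaks, while at 455 kb every unstimulated library lies above every DMSO library.

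No other named peak passed in the belinostat contrast with edgeR at the settings used throughout (all 18 libraries, TMM, no block and the filter at -3). In HDAC5, which represses MEF2 targets as HDAC4 does, the peak with the smallest p was chr17:44086620-44087399 over a coding exon. It had 15.5, 18.3 and 19.6 CPM in unstimulated, 14.9, 17.6 and 19.8 CPM in DMSO and 10.4, 13.8 and 14.8 CPM in belinostat libraries, so that every belinostat library lay below every DMSO library. Its change was -0.39 ± 0.12 (adjusted p = 0.065), and -0.22 (adjusted p = 0.206) with loess offsets, while DESeq2 called it closed (-0.37, adjusted p = 0.0291). It was also called closed by edgeR with a replicate block (adjusted p = 0.0472) and with the filter at an average log2 CPM over 0 (adjusted p = 0.0436) and without belinostat replicate 1 (adjusted p = 0.0275), and not with only the 12 libraries compared (adjusted p = 0.103). In HDAC7 the peak with the smallest p was intronic, chr12:47805421-47805790, at -0.41 ± 0.16 (adjusted p = 0.183). In class I the peaks with the smallest p were weak: an HDAC1 intronic peak (0.65 ± 0.26, adjusted p = 0.176), an HDAC2 intronic peak (-0.64 ± 0.27, adjusted p = 0.208), the HDAC3 intronic peak described below (-1.38 ± 0.55, adjusted p = 0.177) and an HDAC8 peak over a non-coding exon (-1.49 ± 0.56, adjusted p = 0.151). In class IIb they were the narrow HDAC6 start peak (-0.35 ± 0.14, adjusted p = 0.198) and the HDAC10 upstream peak (-0.21 ± 0.15, adjusted p = 0.487). None of the 10 start peaks was called in this contrast, with changes from -0.35 to 0.10.

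Cytokines changed more peaks. In the cytokine contrast 21 of the 259 HDAC peaks opened, beside 9.51% of all peaks, and 33 closed, beside 9.73%. This was 20.9% of HDAC peaks and 19.2% of all peaks. The split depended on the scaling: 11 opened and 4 closed with loess offsets, 38 and 8 with library totals, and 10 and 18 by DESeq2. Of all 334857 peaks these settings opened and closed, in the same order, 7175 and 5930, 54265 and 10894, and 15215 and 18587. The opened peaks were weak, with a median average of 0.31 log2 CPM and none above 1.60. The closed peaks were stronger, with a median of 3.54, but those of HDAC9 had a median of 1.38. Opened HDAC peaks were rich in G and C, with 17 of 21 at a GC content of 55% or more, beside 42.7% of all opened peaks. HDAC4 supplied 12 of these 17. The median GC content was 56.2% over all 108 HDAC4 peaks, 61.7% over the opened and 50.3% over the closed ones. The 1 opened HDAC9 peak had 37.7%.

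All 17 peaks over starts of coding transcripts lay below 0 with TMM, between -0.55 and -0.23, and 11 of them closed (3 with library totals). They were strong peaks, with a median average of 4.1 log2 CPM beside 3.45 for all closed peaks. The share of start peaks of other genes that closed was not counted. With loess offsets they lay between -0.22 and 0.13 and none was called. The falls with TMM are therefore not told apart from the trend with peak strength. Of the class I start peaks, that of HDAC2, chr6:113969883-113971651, fell by 0.55 on the log2 scale (SE 0.11, adjusted p = 0.000198). It had 35.2, 38.8 and 43.8 CPM in unstimulated and 19.6, 26.9 and 31.2 CPM in DMSO libraries, which did not overlap. With loess offsets the change was -0.16 (adjusted p = 0.131). The start peaks of HDAC1, the partner of HDAC2 in its complexes, and HDAC3, the deacetylase of the NCOR1 complex, fell by 0.38 and 0.40 on the log2 scale (adjusted p = 0.0126 and 0.0065), and that of HDAC8 by 0.40 (adjusted p = 0.0374). With loess offsets these were -0.01, -0.01 and -0.11. The HDAC8 fall was also not called with library totals (adjusted p = 0.286), TMM over 10 kb bins (adjusted p = 0.0651) or DESeq2 (adjusted p = 0.12), or when any of 10 libraries was left out, and the HDAC1 fall was not called without DMSO replicate 4. With library totals the HDAC1 and HDAC3 falls were not called either (adjusted p = 0.1425 and 0.0778). The HDAC3 start peak also lies over RELL2, and every HDAC8 peak lies over the overlapping gene model ENSG00000285547.

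The HDAC1 start is shown because it is the class I start whose 250 bases upstream overlap no untranslated exon. It is the plus strand of hg38 chr1:32291833-32292082, from RefSeq, and it ends at the base before the start. Capitals mark SP1 words (GGGCGG or its reverse complement), some of which overlap.
HDAC1 promoter: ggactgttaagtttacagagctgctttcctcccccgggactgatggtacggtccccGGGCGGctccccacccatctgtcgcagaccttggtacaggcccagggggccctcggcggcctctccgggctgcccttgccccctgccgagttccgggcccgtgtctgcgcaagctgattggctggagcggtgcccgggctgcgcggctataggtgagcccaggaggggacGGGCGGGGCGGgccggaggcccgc
Of the first such window listed for each of 27305 genes 42.3% held the SP1 word, and 4 of the 9 found for the HDAC genes did. For HDAC4 and HDAC9 the first window listed belongs to an internal start.

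Outside the starts class I changed little. HDAC2 had 1 further closed peak in an intron. An intronic HDAC8 peak at chrX:72395637-72396075, far from its start, had 0.15, 0.43 and 0.97 CPM in unstimulated and 0.87, 1.28 and 1.61 CPM in DMSO libraries, with overlap of the groups at the edge. It rose by 1.46 ± 0.37 (adjusted p = 0.0036), and by 1.17 with loess offsets (adjusted p = 0.0507). A weak HDAC3 intron peak at chr5:141627016-141627165 rose by 1.52 ± 0.53 (adjusted p = 0.0307), and by 1.02 with loess offsets (adjusted p = 0.256). It was also not called by DESeq2, with TMM over the weaker 50% of peaks, or when any of unstimulated replicates 1, 3, 4 and 6 or DMSO replicates 4 and 6 was left out.

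The class IIa genes HDAC4 and HDAC9 had median changes of opposite sign. Of 108 HDAC4 peaks 13 opened and 11 closed, and of 70 HDAC9 peaks 1 opened and 8 closed. The median cytokine change was 0.28 over HDAC4 and -0.34 over HDAC9, beside 0.13 over all peaks, and with loess offsets it was 0.21 and -0.34. In HDAC9 54 of 70 peaks lay below 0, against 37 of 108 in HDAC4. The 2 genes differ in base composition, with a median GC content of 56.2% in HDAC4 peaks and 40.2% in HDAC9 peaks. Among all peaks of an average log2 CPM from 0 to 2 the median change was -0.16 below 45% GC, 0.13 from 45% to 55% and 0.43 at 55% or more. HDAC9 peaks below 45% GC had a median of -0.34 (n = 38), HDAC4 peaks below 45% one of -0.23 (n = 12), and HDAC4 peaks at 55% or more one of 0.63 (n = 36). The part of base composition in the difference between the genes was not tested.

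**Figure D4:**
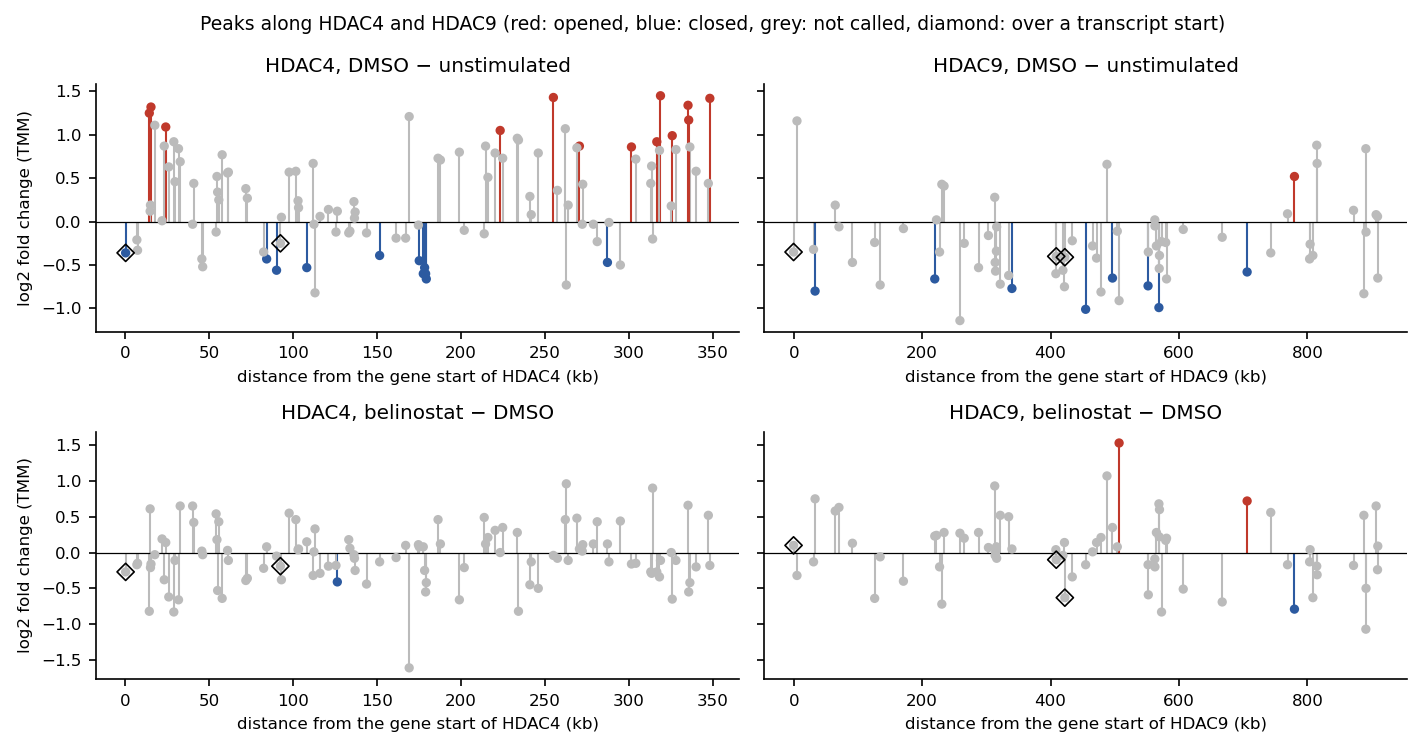
Log2 fold change with TMM scaling of each HDAC4 and HDAC9 peak against distance from the gene start in kb, for the cytokine contrast (top) and the belinostat contrast (bottom). Red marks opened, blue closed and grey uncalled peaks, and diamonds lie over transcript starts. The HDAC4 peaks that opened with cytokines lie near the start and in the last part of the gene, and the closed HDAC9 peaks are spread along it.

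The opened HDAC4 peaks were 12 intronic and 1 over a coding exon, with rises of 0.86 to 1.45 on the log2 scale. The most significant, chr2:239052793-239053738 over a coding exon 348 kb from the start, had 0.16, 0.95 and 1.43 CPM in unstimulated, 1.47, 2.44 and 2.77 CPM in DMSO and 0.80, 1.88 and 3.43 CPM in belinostat libraries. Every DMSO library lay above every unstimulated library. It rose by 1.42 ± 0.28 (adjusted p = 0.00013), and by 1.43 with loess offsets (adjusted p = 0.000419), and it passed in all 26 alternatives. The intronic HDAC4 peaks chr2:239376965-239377669 and chr2:239130548-239131325 rose by 1.09 ± 0.27 (adjusted p = 0.0027) and 0.87 ± 0.26 (adjusted p = 0.0107). Of the 11 closed HDAC4 peaks 5 lay together between 175.3 and 179.5 kb from the start, and the HDAC4 start peak, chr2:239400540-239401988, fell by 0.36 on the log2 scale (adjusted p = 0.0081) but was 0.09 with loess offsets (adjusted p = 0.232). The fall of this start peak was also not called with library totals (adjusted p = 0.0792).

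The fall with the smallest p of all HDAC peaks was the HDAC9 intronic peak at chr7:18541143-18542121, 455 kb from the gene start and 576 kb from the TWIST1 start. It had 13.5, 17.3 and 22.4 CPM in unstimulated, 3.90, 9.13 and 13.3 CPM in DMSO and 4.15, 8.29 and 10.5 CPM in belinostat libraries. Unstimulated and DMSO libraries did not overlap, and belinostat libraries lay within the DMSO range. It fell by 1.01 on the log2 scale (SE 0.14, adjusted p = 2.78e-08), by 0.68 with loess offsets (adjusted p = 1.35e-05), and it passed in all 26 alternatives. Its belinostat change was -0.17 (adjusted p = 0.617) and its residual change -1.18 (adjusted p = 2.39e-11). The HDAC9 intronic peaks chr7:18426534-18427144 and chr7:18638598-18639009 fell by 0.77 (SE 0.23, adjusted p = 0.0122) and 0.74 (SE 0.21, adjusted p = 0.0071), and with loess offsets had adjusted p of 0.0528 and 0.0546. Neither was called with library totals, and the peak at chr7:18426534-18427144 was also not called by DESeq2 or without unstimulated replicate 6 or DMSO replicate 2. The HDAC9 start peak, chr7:18086056-18087361, was -0.35 ± 0.17 (adjusted p = 0.132).

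In HDAC5 4 peaks closed and 1 opened, and in HDAC7 3 closed. The HDAC5 start peak, chr17:44123310-44124365, fell by 0.54 (SE 0.12, adjusted p = 0.00056) and the HDAC5 intronic peak chr17:44095403-44096337 by 0.54 (SE 0.11, adjusted p = 0.000299), on the log2 scale. The HDAC7 start peak, chr12:47819625-47821306, over 10 coding transcript starts, fell by 0.47 (SE 0.11, adjusted p = 0.0013). With loess offsets these were -0.18, -0.18 and -0.06, with adjusted p of 0.170, 0.134 and 0.562.

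Class IIb had few peaks, and 4 opened and 2 closed of 11. The opened peaks were all over coding exons of HDAC6, whose enzyme acts on tubulin. The most significant, chrX:48816267-48816625, had 0, 0.28 and 0.78 CPM in unstimulated, 0.54, 1.06 and 1.75 CPM in DMSO and 0.37, 1.08 and 1.80 CPM in belinostat libraries. It rose by 1.65 ± 0.41 (adjusted p = 0.0025), by 1.37 with loess offsets (adjusted p = 0.0321), and it passed in all 26 alternatives. The other 3 rose by 0.96 to 1.14 on the log2 scale and were not called with loess offsets. The strong HDAC6 start peak chrX:48801561-48802599 fell by 0.33 (adjusted p = 0.0143) but was 0.11 with loess offsets (adjusted p = 0.153). The HDAC10 peak at its 3′ end, shared with TUBGCP6, fell by 0.51 (SE 0.11, adjusted p = 0.00061), and the HDAC10 start peak, shared with MAPK12, was -0.23 ± 0.12 (adjusted p = 0.133).

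Summed per gene, 8 of 10 HDAC loci were lower with TMM in the cytokine contrast, beside 61.6% of all loci, and 0 were higher, beside 10.6%. At an unadjusted p under 0.05 again 8 were lower and 0 higher. DESeq2 called 3 lower and 2 higher, beside 1987 lower and 3432 higher of all 18887 loci. TMM put the median of all loci at -0.26, so a locus at -0.26 moved with the rest. HDAC2 was furthest below it at -0.42 ± 0.08 (adjusted p = 0.000338), in the lowest 6.52% of loci. It had 72.7, 80.6 and 87.8 CPM in unstimulated and 51.2, 62.2 and 68.2 CPM in DMSO libraries, with no overlap, and it stayed lower with loess offsets (-0.13, adjusted p = 0.0415). HDAC9 (-0.37), HDAC5 (-0.35), HDAC10 (-0.35), HDAC7 (-0.34), HDAC3 (-0.33), HDAC1 (-0.30) and HDAC6 (-0.25) were lower with TMM and not called with loess offsets. HDAC4 was -0.10 ± 0.05 (adjusted p = 0.0871) and HDAC8 was 0.02 ± 0.09 (adjusted p = 0.873). Both were higher with loess offsets, by 0.17 (adjusted p = 0.0024) and 0.23 (adjusted p = 0.0266). The HDAC4 locus had 377, 404 and 434 CPM in unstimulated, 353, 378 and 395 CPM in DMSO and 317, 335 and 366 CPM in belinostat libraries, and the HDAC8 locus 15.8, 17.5 and 18.2 CPM, 16.1, 17.6 and 18.9 CPM, and 16.4, 18.2 and 23.4 CPM.

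**Figure D5:**
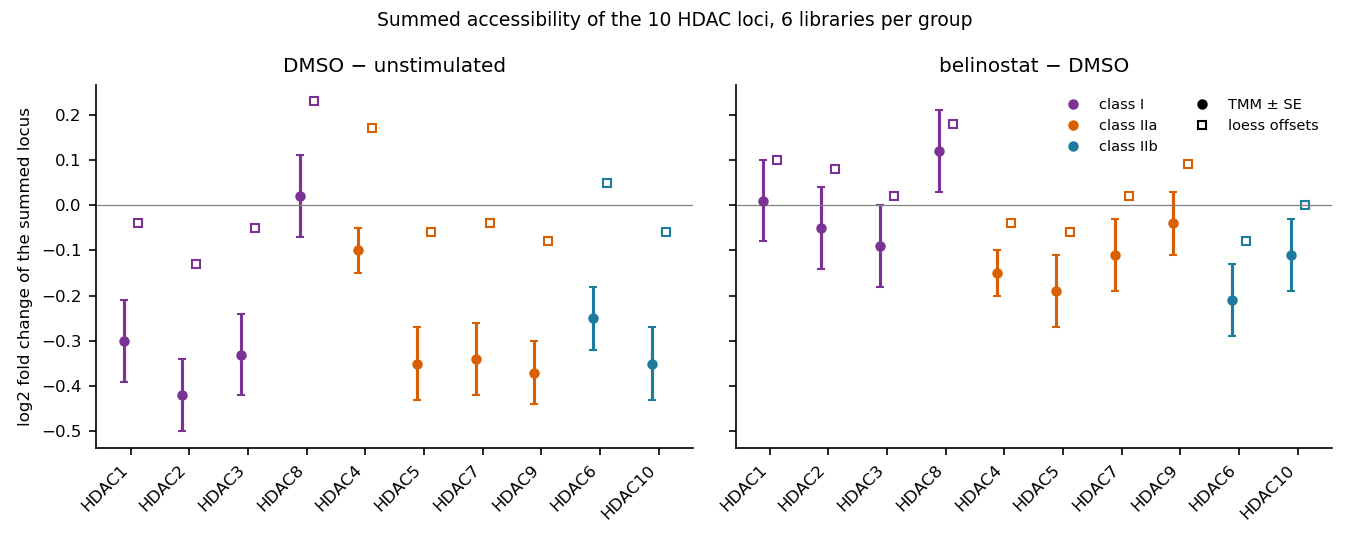
Log2 fold change of the summed HDAC loci in the cytokine contrast (left) and the belinostat contrast (right), with TMM scaling and SE (circles) and with loess offsets (open squares), coloured by class. With TMM 8 of 10 loci are called lower on the left, and with loess offsets HDAC2 is lower and HDAC4 and HDAC8 are higher. No locus is called on the right.

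Belinostat-treated cells still differed from unstimulated cells. In the residual contrast 30 HDAC peaks were opened, beside 16.8% of all peaks, and 48 closed, beside 13.7%. Together this was 30.1% of HDAC peaks and 30.5% of all peaks, so the HDAC share was that of the whole table. With loess offsets 13 opened and 13 closed, beside 14760 opened and 14531 closed of all 334857 peaks. By class the peaks opened and closed with TMM were 5 and 6 of 44 in class I, 21 and 37 of 204 in class IIa and 4 and 5 of 11 in class IIb. Of the loci 9 were lower, beside 65.9% of all loci, and 0 higher, beside 12.9%, with HDAC8 not called (0.13 ± 0.09, adjusted p = 0.172). DESeq2 called 4 loci lower and 2 higher, beside 3967 lower and 5018 higher of all 18887 loci. HDAC8 was higher by 0.41 with loess offsets (adjusted p = 0.000161). The HDAC4 locus was called in opposite directions by the scalings, lower with TMM (-0.25, adjusted p = 0.000118) and higher with loess offsets (0.13, adjusted p = 0.0084). HDAC5 was lower with both (-0.54 with TMM, and -0.12 with loess offsets at an adjusted p of 0.0085), and none of the other 7 was called with loess offsets.

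Genes that work with or against the deacetylases were read by summed locus from lists. In the belinostat contrast none of their 70 loci passed with edgeR, 2 higher and 19 lower had an unadjusted p under 0.05, and DESeq2 called 1 higher and 4 lower. Of all 18887 loci DESeq2 called 377 higher and 598 lower. With loess offsets TBL1X, a subunit of the HDAC3 complex, was higher (0.28, adjusted p = 0.0011) and SIN3A, the scaffold of an HDAC1 and HDAC2 complex, lower (-0.13, adjusted p = 0.0409). In the cytokine contrast, where TMM called 61.6% of all loci lower and 10.6% higher, 28 of 34 corepressor subunits were lower and 2 higher, with a median of -0.32 beside -0.26 for all loci. With loess offsets 0 of them were lower and 5 higher, and DESeq2 called 4 lower and 4 higher. Of all 18887 loci, loess offsets called 1382 lower and 2573 higher, and DESeq2 called 1987 lower and 3432 higher. DESeq2 called 10 of all 70 list loci lower and 4 higher. The 2 higher with TMM were MTA1 of the NuRD complex (0.30 ± 0.10, adjusted p = 0.007, and 0.58 with loess offsets) and SIN3B (0.23 ± 0.11, adjusted p = 0.0478, and 0.50 with loess offsets). Of the acetyltransferases, which add the acetyl groups, 9 of 10 were lower (median -0.33, 1 lower and 0 higher with loess offsets), among them EP300 (-0.30 ± 0.08, adjusted p = 0.0029). Of 4 MEF2 factors 3 were lower, among them MEF2A (-0.36 ± 0.08, adjusted p = 0.000596), and MEF2A was not called with loess offsets. Of 10 kinases and YWHA adaptors that hold class IIa enzymes in the cytoplasm 9 were lower (2 with loess offsets), and of 8 other deacetylases, HDAC11 and the sirtuins, 6 were lower (2 with loess offsets).

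Likeness was read for HDAC9 and HDAC7, the class IIa genes with tissue-restricted expression. The loci whose log2 CPM followed that of HDAC9 most closely over the 18 libraries were PALM2AKAP2 and SKAP2 (both Pearson r = 0.984) and JAZF1 (r = 0.981), and for HDAC7 they were AFAP1L2 (r = 0.980), ASPH and RAB11B (both r = 0.979). All loci share the libraries, their depth and the trend with peak strength.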

How the data were processed

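Bulk ATAC-seq (Omni-ATAC) libraries of Ccd18-Co cells were grouped by their titles into 6 unstimulated, 6 DMSO and 6 belinostat libraries. The authors processed reads with the ENCODE ATAC-seq pipeline on hg38, called peaks with MACS2, merged them into a consensus set, counted fragments with csaw and annotated peaks with ChIPseeker 1.34.1. What the authors deposited is a table of raw counts, 1 whole number of fragments for every peak in each library. The authors normalized on 10 kb background bins, which were not used here, so TMM factors over peaks took their place. Libraries that differ in background can then differ in weak against strong peaks.

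Tests on counts used edgeR 4.0.16 (glmQLFit and glmQLFTest, R 4.3.3) on all 18 libraries with 1 mean per group, with Benjamini-Hochberg adjustment over 334857 peaks or, for counts summed per gene, over 18887 protein-coding genes, with a threshold of 0.05. The filter of an average log2 CPM over -3 removed 0 peaks. Alternatives were DESeq2 1.42.0, loess offsets (limma 3.58.1), library totals, TMM over the weaker 50% of peaks, TMM over peak counts in 10 kb bins, a filter at an average log2 CPM over 0, only the compared libraries, a replicate block, the nearest start in place of overlap, and each library left out. Between libraries of a group the chi-square per degree of freedom ran from 1.026 to 2.331, where sampling noise alone gives 1. The closest pairs therefore differed by little more than sampling noise. GENCODE 44 gave the features, RefSeq (GRCh38.p14) the promoter windows, which matched for 9 of the 10 genes, and hg38 the sequences. Starts are counted from 1.

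The members, the lists and the tests were chosen with earlier results of these data known. Named were each gene's start peak, its smallest-p peak in the belinostat and cytokine contrasts, every peak called in the belinostat contrast, and the 3 largest called cytokine rises and falls at an average log2 CPM of at least 1. The 3 HDAC6 and HDAC9 peaks over further starts, the grouped HDAC4 and HDAC6 peaks and the list genes given with values were picked after their values were seen. The study also states other IL-1β and belinostat concentrations, and those of the labels are given here. The values of 1 list of the genes read by summed locus are not reported here.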

Additional observations from a re-analysis of the deposited data

Results flagged for a closer look

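Within 1 group of 6 libraries, 3 of the 123 groups examined held a library whose gap to its nearest neighbour divided by the range of the group exceeded Dixon's critical value. Chance flags about 5% of groups. In the HDAC4 coding exon peak chr2:239052793-239053738, DMSO replicate 3 was lowest at 1.47 CPM against 2.30 CPM in the next library. In the HDAC5 start peak, belinostat replicate 1 was highest at 18.85 CPM against 13.9 CPM in the next. In the HDAC9 intronic peak chr7:18426534-18427144, DMSO replicate 2 was lowest at 0.542 CPM against 1.62 CPM in the next, and the cytokine fall of this peak was not called without that library.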

How the results depend on the processing

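The counts of called HDAC peaks and loci depend mainly on the scaling. Among all peaks the cytokine contrast gave 7584 opened and 83810 closed with TMM over the weaker 50% of peaks. With library totals it gave 54265 and 10894. Cytokine contrast, peaks opened (21) and closed (33): 38 and 8 with library totals, 11 and 4 with loess offsets, 5 and 90 with TMM over the weaker 50% of peaks, 10 and 18 by DESeq2. Residual contrast, opened (30) and closed (48): 56 and 22 with library totals, 13 and 13 with loess offsets, 2 and 106 with the weaker peaks, and 19 opened with an average log2 CPM over 0. Belinostat contrast, opened (2): 1 by DESeq2, 0 with the weaker peaks and 1 with an average log2 CPM over 0. Belinostat contrast, closed (2): 1 with library totals, loess offsets, the weaker peaks or only the 12 libraries compared. Loci higher were 2 in the cytokine contrast with library totals, loess offsets or DESeq2, and in the residual contrast 1 with library totals or 10 kb bins and 2 with loess offsets or DESeq2. Loci lower in the cytokine contrast (8) were 5 with library totals, 1 with loess offsets and 3 by DESeq2, and in the residual contrast (9) 1 with loess offsets and 4 by DESeq2. With each library left out in turn, cytokine peaks opened were 11 to 25 (11 without unstimulated replicate 1 or 6, 12 without DMSO replicate 1 or 4) and closed 19 to 36 (19 without DMSO replicate 1, 20 without unstimulated replicate 6). Belinostat peaks opened were 0 to 2 (0 without DMSO replicate 1 or 2) and closed 0 to 6 (6 without belinostat replicate 1, 0 without DMSO replicate 1 or 3). Residual peaks opened were 19 to 36 (19 without belinostat replicate 4) and closed 39 to 55, and loci lower in the belinostat contrast were 0 to 3 (3 without belinostat replicate 1). The cause of these differences was not tested.

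With loess offsets these peaks changed sign: in the residual contrast the start peaks of HDAC1 (0.03), HDAC2 (0.04), HDAC3 (0.05), HDAC4 (0.05), HDAC7 (0.11) and HDAC10 (0.15), the HDAC10 upstream peak (0.07), the HDAC4 internal start peak (0.28, and 0.02 with library totals) and the HDAC5 coding exon peak (0.09), and in the cytokine contrast the HDAC4 start peak (0.09) and the HDAC5 coding exon peak (0.32). Over the named peaks and all alternatives 2231 values kept their direction and side of the threshold, 137 lost a call, 24 gained one and 12 changed sign.

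Replicate numbers did not pair the libraries: deviations of same-numbered libraries correlated at -0.133 to 0.106. With a replicate block 21 peaks opened and 33 closed in the cytokine contrast, 2 and 3 in the belinostat contrast and 32 and 49 in the residual contrast, and 8 and 9 loci were lower in the cytokine and residual contrasts.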

Other observations

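The HDAC9 peak over the internal starts at chr7:18509017-18509388 had a belinostat change of -0.63 (adjusted p = 0.0915 with edgeR), and -0.55 with loess offsets (adjusted p = 0.145).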
